A study of Mus musculus with 10 samples.

Results

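The genes described here are 10 early response transcription factors: the AP-1 subunits Fos, Fosb, Jun, Junb and Jund, the related factor Atf3, the zinc finger factors Egr1 and Egr2, and the orphan nuclear receptors Nr4a1 and Nr4a3. Each was found by its gene symbol among 34760 probe sets, and each had 1 probe set that names that gene alone. Of the 10 genes, 9 had a mean log2 level of at least 6.35 over all arrays, the limit set for dim probe sets, and were tested among 12670 genes. Their mean passed that limit in each genotype on its own. Nr4a3, with a mean of 5.70, lay below it and is described with an exact permutation test alone.

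RNA was taken from mediastinal T cell lymphomas of 10 mice, 1 array per mouse, and none of the mice was treated. All of them carried the NPM-ALK transgene, a fusion kinase of anaplastic large cell lymphoma, on a c57BL/6 background. In 5 mice (labelled WT) WASP was intact, and 5 (labelled WASP -/-) lacked it, which in males means loss of the only copy. WASP, encoded by Was, starts branched actin filaments in blood cells. Lymphomas had arisen by 4 to 5 months of age. For the age of single animals and the promoter of the transgene, neither is given in the sources used here. All levels below are log2 intensities, and all differences are WASP-deficient minus WASP-intact on the log2 scale.

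Early response genes are switched on within minutes of a signal and need no new protein for it. FOS and JUN proteins pair through leucine zippers to form AP-1, which in T cells acts with NFAT downstream of the antigen receptor. EGR1 and EGR2 are induced by ERK signalling, and NR4A1 and NR4A3 are widely used as signs of recent antigen receptor signalling. In ALK-positive lymphoma JUNB is known as a driver of CD30, the product of Tnfrsf8. Serum response factor (SRF), which with its partners induces Fos and Egr genes, has a cofactor family, the MRTFs, that is held back by free actin.

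Promoter sequences were looked up for the members. Entries of RefSeq (GRCm38.p6) were searched for 9 of the 10 genes. Egr1 was left out of the search, so nothing is said here of its promoter. The 250 bases before the start are printed here for Jun, which differed most between Cd2-high and Cd2-low arrays, for Fos, which had the smallest p of the members between genotypes, and for Nr4a1 and Nr4a3, which were both highest on the same array. Capitals mark matches, on either strand, to the core of the cyclic AMP response element (TGACG, or CGTCA read from the other strand), to the AP-1-like site TGACATCA and to the EGR site GCGNGGGCG. The Jun stretch is chr4:95052223-95052472 (minus strand), that of Fos chr12:85473640-85473889 (plus strand), that of Nr4a1 chr15:101266596-101266845 (plus strand) and that of Nr4a3 chr4:48045055-48045304 (plus strand), each read 5′ to 3′ towards the gene.
Jun: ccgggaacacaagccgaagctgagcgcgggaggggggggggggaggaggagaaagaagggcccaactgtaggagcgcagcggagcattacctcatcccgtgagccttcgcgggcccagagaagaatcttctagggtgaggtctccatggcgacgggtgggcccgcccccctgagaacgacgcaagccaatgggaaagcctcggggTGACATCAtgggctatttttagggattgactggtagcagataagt
Fos: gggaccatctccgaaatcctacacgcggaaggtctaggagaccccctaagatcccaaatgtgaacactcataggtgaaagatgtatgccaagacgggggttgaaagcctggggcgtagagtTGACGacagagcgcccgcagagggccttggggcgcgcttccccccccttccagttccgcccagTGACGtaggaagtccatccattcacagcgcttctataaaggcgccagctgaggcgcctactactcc
Nr4a1: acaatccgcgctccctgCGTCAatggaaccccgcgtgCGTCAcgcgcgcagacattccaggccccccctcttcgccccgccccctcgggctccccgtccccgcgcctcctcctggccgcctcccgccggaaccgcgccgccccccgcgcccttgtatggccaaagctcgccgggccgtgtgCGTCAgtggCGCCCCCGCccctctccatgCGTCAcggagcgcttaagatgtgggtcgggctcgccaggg
Nr4a3: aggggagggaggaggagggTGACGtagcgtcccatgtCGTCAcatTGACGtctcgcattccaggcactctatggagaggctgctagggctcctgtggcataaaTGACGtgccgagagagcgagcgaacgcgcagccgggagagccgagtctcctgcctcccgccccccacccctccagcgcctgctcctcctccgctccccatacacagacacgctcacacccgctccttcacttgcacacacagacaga

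Nr4a1 and Nr4a3 each held 4 matches to TGACG. At least 4 were found in 0.137% of 32851 promoter stretches of this length, and at least 1 in 17.8%. Fos held 2, and Fosb, Junb and Atf3 held 1 each. Egr2 held 2 at 3 overlapping starts of its 5, which makes 7 of the 9 members searched with a match. Jun held none but had TGACATCA, 45 to 38 bases before its start, as did 2.93% of all stretches. The EGR site was in the stretches of Nr4a1 and Fosb and in 4.7% of all. Jund held no match to any of the motifs searched. Of the 5 Egr2 starts listed, 4 had a CArG box, the SRF site, and 3 of these overlap and share 1 box, which leaves 2 distinct boxes; 1.47% of all stretches held one. The full element TGACGTCA, the AP-1 site TGANTCA and the NR4A site AAAGGTCA were in none of the stretches searched for members. Of all stretches 1.55%, 6.75% and 1.34% held them. TGACG is part of TGACGTCA, so matches to these 2 can coincide. These matches describe letters in a window and no binding was measured.

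Some facts of the series bear on the members. Was itself was at 9.22 ± 0.10 with WASP intact and at 8.08 ± 0.13 without (SD, n = 5 each; difference -1.14, SE 0.08, limma adjusted p = 0.00088), and its ranges did not overlap. Cd3e, a chain of the T cell receptor complex, lay between 12.06 and 12.59 on all 10 arrays, and 10 of 12 T cell markers were tested. All 10 neutrophil markers were below the filter, with levels of 4.35 to 6.73. Arrays 4 and 5 of the WASP-intact group and array 1 of the WASP-deficient group had Cd2, an adhesion receptor of T cells, at 11.18 to 11.52 and are called Cd2-high; the other 7, at 6.10 to 6.90, are called Cd2-low (limit 9). Cd3d and Cd3g ran opposite to Cd2. Cd3d was at 5.26 to 6.47 on Cd2-high and 8.96 to 10.08 on Cd2-low arrays, Cd3g at 6.29 to 10.24 and 11.45 to 12.23. Zap70 ran the same way as Cd2, at 9.88 to 10.07 on Cd2-high and 8.56 to 9.82 on Cd2-low arrays. In all, 4 of the 10 tested T cell markers, Cd2 included, did not overlap between these sets. This split rests on a measured level, is no group of the study and is described without a test. Xist was high (11.52 to 11.90) on 4 WASP-intact arrays and low (4.40 to 5.58) on the other 6, so sex and genotype largely coincide. In whole tumour RNA, fewer cells of a type and less RNA per cell cannot be told apart.

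The first question was whether early response genes differ when WASP is missing. None of the 9 tested members passed (limma, adjusted p = 0.999 for each), where 0.00789% of all genes did, Was alone. At an unadjusted p under 0.05 there were 3 members, against 2.89% of all genes tested: Fos and Fosb with lower means (1.33% of all genes) and Atf3 with a higher mean (1.56%) in WASP-deficient lymphomas. In this main fit 366 of 12670 genes had an unadjusted p under 0.05. With the Xist level as a covariate 0 members and 187 of all genes had one, and with the replicate block 1 and 248. There were 4 members and 523 genes with array weights, 4 and 554 with the Cd2 class as a block, and 5 and 888 without WASP-deficient array 1. In the unmoderated test with unequal variances 0 members passed and 2 had an unadjusted p under 0.05, against 301 genes. In these settings the count over all genes rose and fell with that of the members, but in others it did not. Without WASP-intact array 4 or 5 there were 3 members each time and 205 or 234 genes. Without WASP-intact array 1, WASP-intact array 3 or WASP-deficient array 2 there were 2 members each time and 375, 386 or 395 genes. The ranges of the 2 genotypes overlapped for all 10 members, where 0.568% of genes tested had ranges that did not. Of the 9 differences 6 were above 0 and 3 below, with a median of 0.06, against -0.004 over all genes tested.

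**Figure D1:**
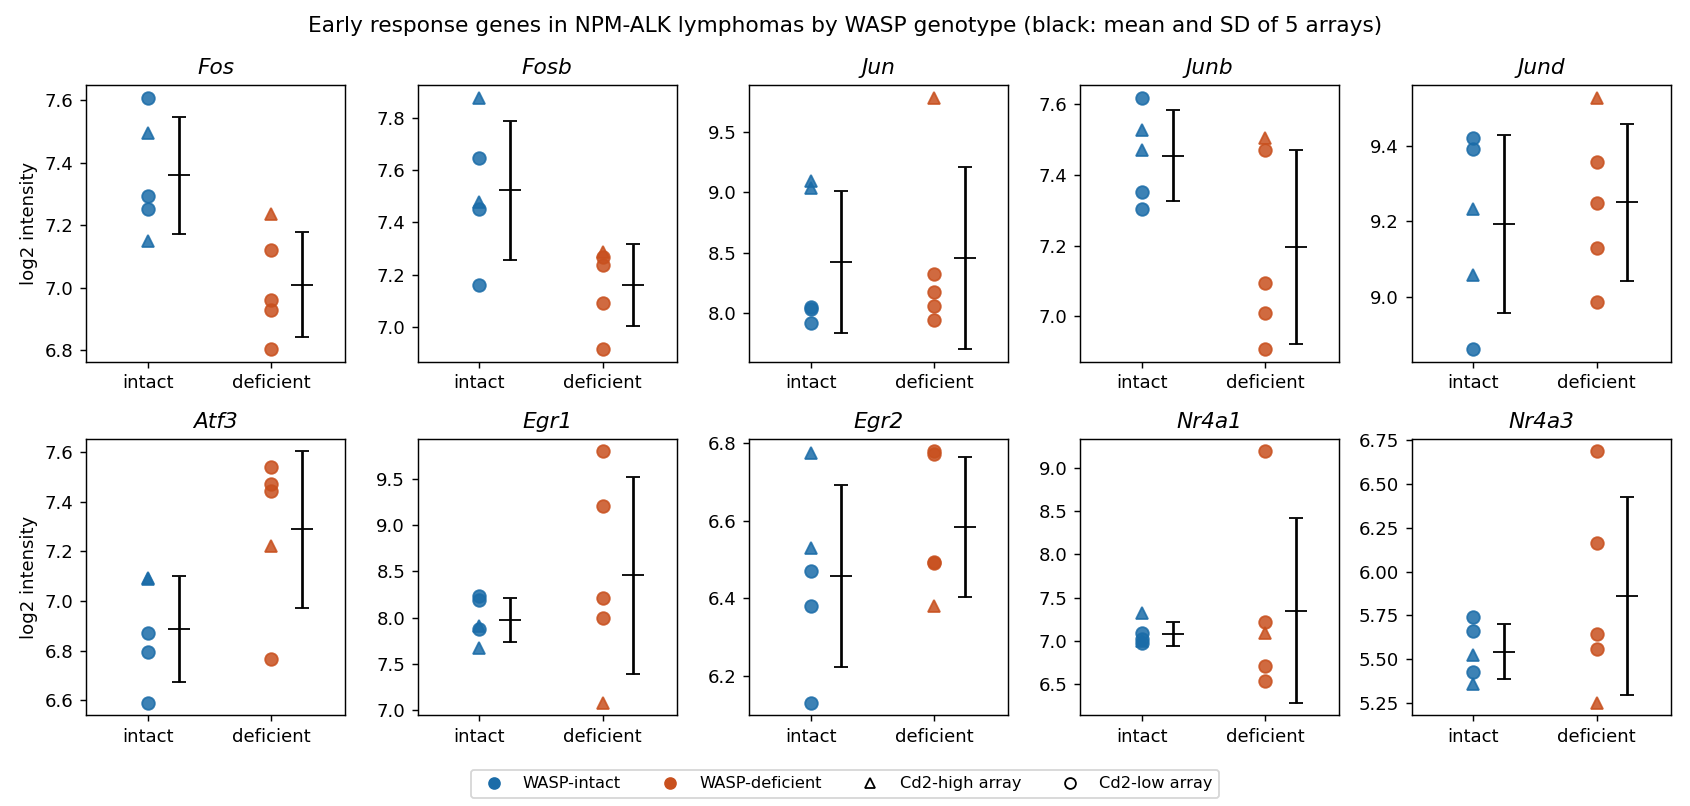
Log2 intensity of each of the 10 genes (vertical axis, own scale per panel) on 5 WASP-intact and 5 WASP-deficient arrays; points are arrays, triangles the 3 Cd2-high arrays, and black bars the mean and SD. Fos means were 7.36 and 7.01, and single WASP-deficient arrays stood far above the rest for Jun (9.79) and Nr4a1 (9.19).

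Fos, the founding partner of JUN in AP-1, was at 7.30, 7.61, 7.25, 7.50 and 7.15 on WASP-intact arrays 1 to 5. On WASP-deficient arrays 1 to 5 it was at 7.24, 6.93, 6.80, 7.12 and 6.96. All 5 WASP-deficient arrays lay below the WASP-intact mean and 4 below the lowest WASP-intact array. The exception was WASP-deficient array 1, which lay above WASP-intact array 5. The difference was -0.35 (SE 0.11, limma unadjusted p = 0.0115, adjusted p = 0.999; unadjusted exact two-sided permutation p = 0.0159), or 0.785 of the WASP-intact level. Among the 7 Cd2-low arrays the ranges of Fos did not overlap, 7.25 to 7.61 in 3 WASP-intact and 6.80 to 7.12 in 4 WASP-deficient lymphomas (unadjusted exact permutation p = 0.0286, the smallest that 3 against 4 allow). Among these 7 arrays the same held for 2 of 10 members, Fos and Egr2, and for 4.06% of genes tested (2.15% lower, 1.91% higher).

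Fosb, a close relative of Fos, was at 7.45, 7.65, 7.16, 7.88 and 7.48 with WASP and at 7.29, 7.09, 7.27, 6.91 and 7.24 without. WASP-intact array 3 alone reached into the WASP-deficient range. The difference was -0.36 (SE 0.13, limma unadjusted p = 0.0211, adjusted p = 0.999; unadjusted exact permutation p = 0.0317). With the Xist level as a covariate it was -0.02 (SE 0.18), while that of Fos was -0.29 (SE 0.19). Among WASP-intact arrays only array 3 had low Xist, so both of these values rest largely on that array. Junb, a JUN relative that is abundant in ALK-positive lymphoma, was at 7.30, 7.62, 7.35, 7.47 and 7.53 with WASP and at 7.51, 7.01, 7.09, 7.47 and 6.91 without. WASP-deficient arrays 2, 3 and 5 lay below every WASP-intact array and the other 2 did not (difference -0.26, SE 0.13, limma adjusted p = 0.999).

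Atf3, a stress-induced relative that pairs with JUN proteins, was at 6.79, 6.59, 6.87, 7.09 and 7.09 with WASP and at 7.22, 7.54, 7.44, 7.47 and 6.76 without. Here 4 of 5 WASP-deficient arrays exceeded every WASP-intact array, and array 5 did not. The difference was 0.40 (SE 0.16, limma unadjusted p = 0.0306, adjusted p = 0.999; unadjusted exact permutation p = 0.0476). Macrophage markers moved with it: the mean centred level of the 10 tested of 13 markers was 0.25, 0.40, 0.11 and 0.16 on WASP-deficient arrays 1 to 4, -0.35 on array 5, and -0.32 to 0.10 on WASP-intact arrays. Their part in the Atf3 values was not tested.

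Jund, the subunit that is least inducible and present in resting cells, ranged only from 8.86 to 9.53 over all arrays. Its means were 9.19 ± 0.23 and 9.25 ± 0.21 (SD, n = 5 each; difference 0.06, SE 0.14). Egr2, which restrains activated T cells, was at 6.38, 6.13, 6.47, 6.53 and 6.78 with WASP and at 6.38, 6.49, 6.49, 6.78 and 6.77 without (difference 0.13, SE 0.13). Egr2 overlapped widely over all 10 arrays, and the 4 Cd2-low WASP-deficient arrays lay just above the 3 Cd2-low WASP-intact ones, the nearest at 6.49 and 6.47 (unadjusted exact permutation p = 0.0857).

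**Figure D2:**
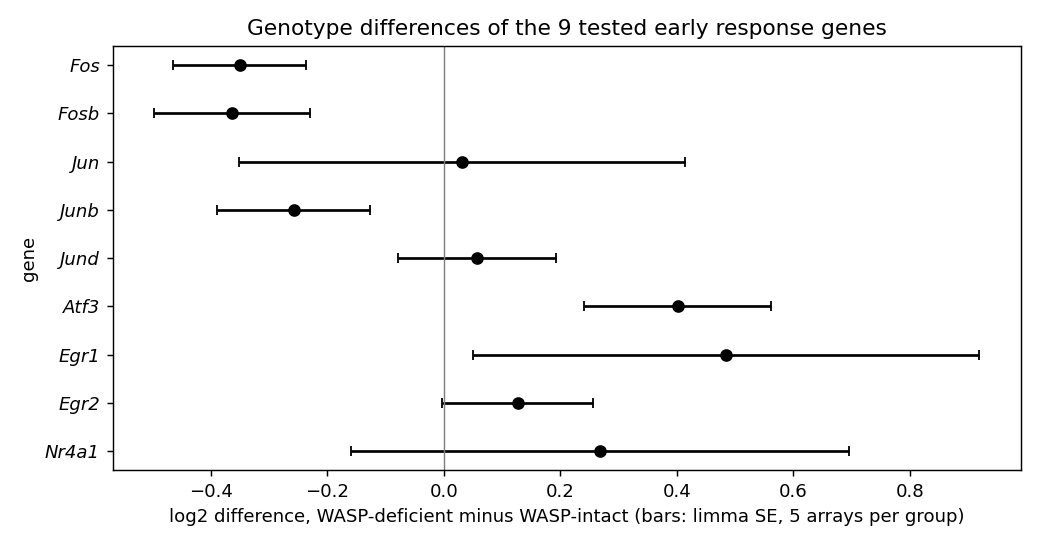
Log2 difference between genotypes (horizontal axis) for the 9 tested genes, with limma SE bars, 5 arrays per group. Fos, Fosb and Junb lie below 0 at -0.35, -0.36 and -0.26, and the widest bars are those of Egr1, Nr4a1 and Jun (SE 0.43, 0.43 and 0.38).

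Other marker lists also differed in level between the genotypes beside these values. The 9 epithelial markers had a mean centred level of -0.78 to 0.10 on WASP-intact and -0.08 to 0.71 on WASP-deficient arrays, and the 6 tested of 8 adipocyte markers of -0.07 to 0.50 and -0.41 to -0.04. Their part in the members' differences was not tested.

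Egr1 and Nr4a1 had the widest spread of the 10 members within the WASP-deficient group, where the SD of Egr1 was 1.07 against 0.24 with WASP intact and that of Nr4a1 1.06 against 0.14. Whether this spread differs between genotypes was not tested. Egr1, which couples ERK signalling to transcription, was at 8.23, 8.19, 7.88, 7.67 and 7.90 with WASP and at 7.08, 7.99, 8.21, 9.21 and 9.80 without. WASP-deficient arrays 4 and 5 were the 2 highest of all and array 1 the lowest. The mean difference of 0.48 (SE 0.43, limma adjusted p = 0.999) was 0.15 without WASP-deficient array 5 and 0.83 without WASP-deficient array 1.

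Nr4a1, also called Nur77, was at 6.98, 7.02, 7.09, 7.32 and 7.01 with WASP and at 7.09, 6.54, 6.72, 9.19 and 7.23 without. WASP-deficient array 4 exceeded the next array by 1.87, or 3.65-fold, and the other 4 WASP-deficient arrays enclosed most of the WASP-intact range. The difference was 0.27 (SE 0.43, limma adjusted p = 0.999) and turned to -0.19 (SE 0.15) without that array. Array 4 was the highest of all 10 by at least 1 for 14 genes, 0.11% of those tested. Nr4a3, a close relative of Nr4a1, was at 5.43, 5.74, 5.66, 5.36 and 5.53 with WASP and at 5.25, 5.56, 5.64, 6.69 and 6.16 without. WASP-deficient arrays 4 and 5 again stood above the other 8, and the mean difference was 0.32 (exact two-sided permutation p = 0.294).

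Arrays 4 and 5 of the WASP-deficient group were thus the top pair for Egr1 and for Nr4a3, as they were for 8.49% of genes tested. Array 4 was the highest for Egr2, Nr4a1 and Nr4a3, as it was for 17.2%. Its lead over the next array was only 0.005 for Egr2, against 1.87 for Nr4a1 and 0.53 for Nr4a3. For Egr1 the step from the other 8 arrays was 0.98, and 18 genes, 0.142% of those tested, had a step at least as large. Fos, Fosb, Jun, Junb, Jund and Atf3 did not share this order: none of them was highest on array 4 or 5, where array 5 was highest for 12.6% of genes tested. Nab2, a corepressor that binds EGR proteins and is induced by them, was at 9.14 and 9.71 on these arrays and at 8.10 to 8.89 on the other 8. Macrophage markers were lowest of all on array 5, fibroblast markers were lowest on array 4 (-0.66), and adipocyte markers were lowest and second lowest on arrays 5 and 4 (-0.41 and -0.39); their part in the Egr1 and Nr4a values was not tested.

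**Figure D3:**
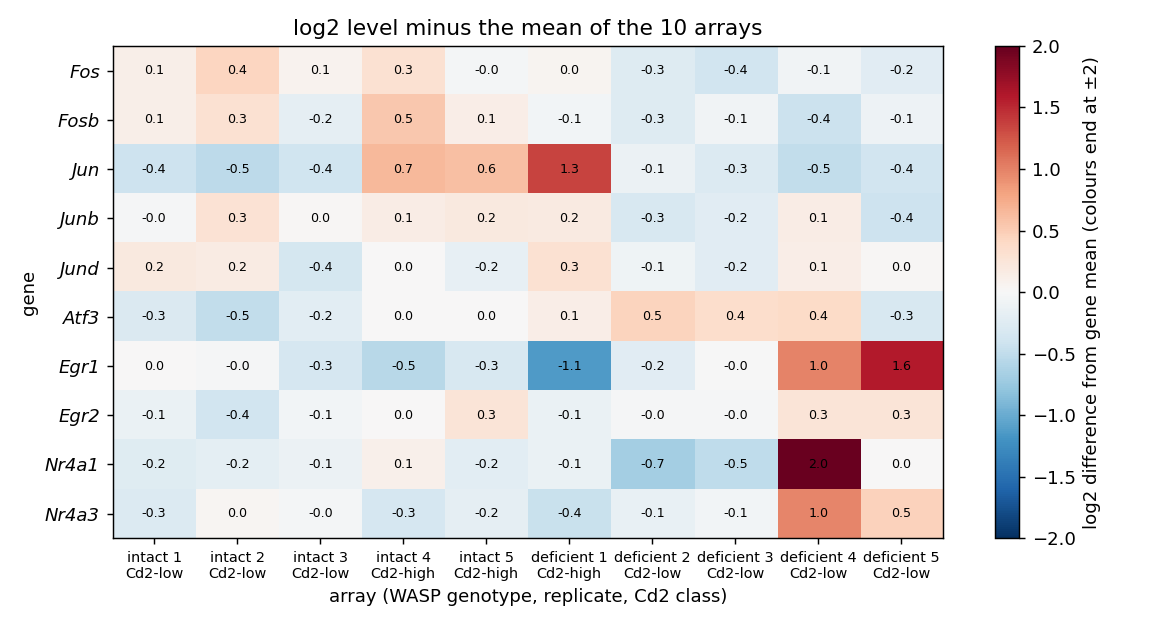
Log2 level of each gene minus its mean over the 10 arrays (colour and printed value); columns are arrays with genotype, replicate and Cd2 class. Jun was high on the 3 Cd2-high arrays (9.04 to 9.79), and Egr1 and Nr4a3 on WASP-deficient arrays 4 and 5.

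Jun set the Cd2-high arrays apart from the Cd2-low ones. Its levels on the 3 Cd2-high arrays were 9.10 and 9.04 with WASP and 9.79 without. On the 7 Cd2-low arrays they were 8.03, 7.91 and 8.04 with WASP and 8.33, 8.17, 7.94 and 8.05 without. The medians differed by 1.05, or 2.07-fold, and the nearest arrays of the 2 sets by 0.72. Medians higher on Cd2-high arrays by at least as much were found for 3.74% of genes tested. Within WASP-intact lymphomas the medians differed by 1.04. Between genotypes Jun differed by 0.03 (SE 0.38, limma adjusted p = 0.999), and by 0.29 with the Cd2 class as a block.

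Jun was the only 1 of the 10 members whose Cd2-high and Cd2-low ranges did not overlap, where 30.5% of genes tested had such ranges, so the count is no result about the members. Egr1 came closest on the lower side, at 7.08 to 7.90 on Cd2-high and 7.88 to 9.80 on Cd2-low arrays, with a median difference of -0.54. Nr4a3 had a median difference of -0.30 and the other 7 members of -0.02 to 0.24. Junb lay at 7.47 to 7.53 on Cd2-high arrays, inside the 6.91 to 7.62 of the Cd2-low ones. Within WASP-intact lymphomas, 2 arrays against 3, the ranges of Jun, Atf3 and Egr2 did not overlap, and neither did those of 61.6% of genes tested. Fibroblast markers (10 of 11 tested) moved with the same split, with a mean centred level of 0.37 to 0.80 on Cd2-high and -0.66 to 0.08 on Cd2-low arrays. Their part in the Jun values, and that of the T cell markers that split with Cd2, was not tested.

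**Figure D4:**
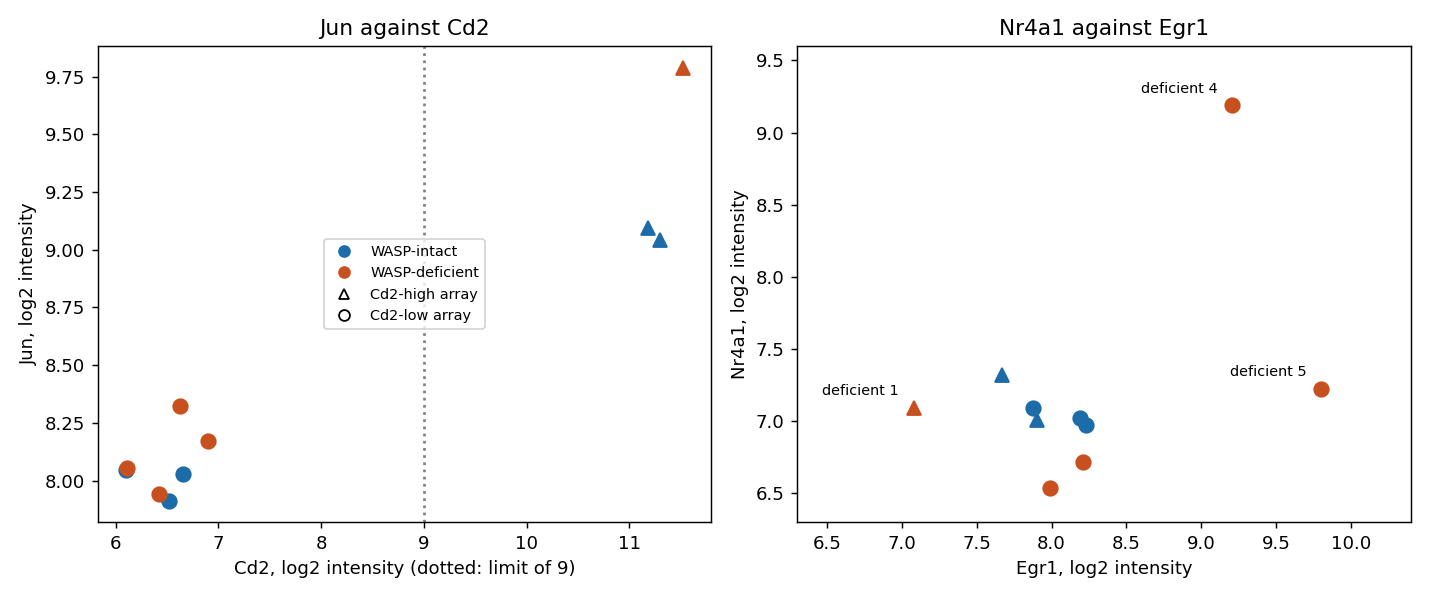
Log2 intensity of Jun against Cd2 (left, dotted line at the limit of 9) and of Nr4a1 against Egr1 (right), 1 point per array, triangles for Cd2-high. The 3 Cd2-high arrays have Jun at 9.04 or above and the other 7 at 8.33 or below; WASP-deficient array 4 stands alone for Nr4a1 at 9.19, and array 5, with Egr1 at 9.80, has Nr4a1 at 7.23.

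How far members varied together was compared over 45 pairs, and 0 of them passed after Benjamini-Hochberg adjustment (permutation tests with 100000 resamples), while 5 had an unadjusted p under 0.05. Egr1 and Nr4a3 had Pearson r = 0.85 (permutation p = 0.0052, adjusted 0.206) and Spearman rho = 0.71 (p = 0.0261, adjusted 0.440). Without WASP-deficient arrays 4 and 5, the 2 farthest from the Egr1 median, r was 0.74. Fos and Junb had r = 0.78 (permutation p = 0.00917, adjusted 0.206) and rho = 0.60 (p = 0.0741, adjusted 0.556), with r = 0.69 once the 2 arrays farthest from the Fos median were left out. Nr4a1 and Nr4a3 had r = 0.79 (permutation p = 0.0448, adjusted 0.403) but rho = 0.30 (p = 0.408, adjusted 0.798), and r = 0.06 without the 2 arrays farthest from the Nr4a1 median, so the first value rests on those arrays. For Jun, whose arrays fall into separate sets, no pooled value is given.

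The genes most like each member over the 10 arrays were found by Pearson r, given as a description. They were the highest among 12670 genes tested, so a high r comes in part from that choice. For Jun they were Btbd3 and Sorcs2, both split between the Cd2 sets as Jun was, so that no r is given; Btbd3 was at 7.76 to 8.80 on Cd2-high and 6.42 to 7.16 on Cd2-low arrays. Junb was followed most closely by the stress-induced factor gene Ddit3 (r = 0.90) and by Rtf2 (r = 0.88), and Jund by Coq10b (r = 0.92) and the antiproliferative gene Btg1 (r = 0.90). For Atf3 they were Anxa1 (r = 0.94) and Cybb (r = 0.91), a subunit of the phagocyte oxidase. Egr1 went with the tetraspanin gene Cd151 and with Clstn3 (r = 0.97 each), Nr4a1 with Ip6k1 (r = 0.97) and Bend5 (r = 0.95), and Nr4a3 with Clec2l (r = 0.96) and Tmem91 (r = 0.95). Ip6k1 was at 10.15 on WASP-deficient array 4 and 9.58 to 9.76 elsewhere, and Bend5 at 8.80 and 7.83 to 8.28. Cd151, Clstn3, Clec2l and Tmem91 were highest on WASP-deficient arrays 4 and 5, as Egr1 and Nr4a3 were. These r values thus lean on those arrays. Fos went with Cela3b (r = 0.89) and with Fermt3, an integrin activator of blood cells (r = 0.84), Fosb with Cyp4f13 and Zcchc7 (r = 0.92 each), and Egr2 with Dchs1 (r = 0.89) and Cpxm1 (r = 0.88).

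The rest of the pathway was read from 8 lists with 147 distinct genes, 127 of them tested. None passed between genotypes (limma), and 7 had an unadjusted p under 0.05, 4 higher and 3 lower. That is 5.51% of the 127, against 2.89% of all genes tested. The median difference was -0.008. Among 20 tested AP-1 partners and relatives 14 had higher and 6 lower values, with Atf4, the main factor of the integrated stress response, at 0.23 (SE 0.10), Nfil3 at 0.72 (SE 0.48) and Maf at 0.31 (SE 0.19). Fosl2, a further FOS relative, was at 8.99 on WASP-deficient array 4 and at 6.99 to 7.66 on the other 9.

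Of 7 EGR and NR4A relatives and EGR corepressors 3 had higher values, with Wt1 at -0.20 (SE 0.12), Nab1 at 0.16 (SE 0.10) and Nab2 at 0.29 (SE 0.26). Egr3 and Egr4 ranged from 7.09 to 7.34 and from 6.28 to 6.73 and did not follow Egr1 on WASP-deficient arrays 4 and 5. Nr4a2 was at 6.57 to 7.01 on Cd2-high and 6.03 to 6.54 on Cd2-low arrays, whereas Nr4a1 and Nr4a3 overlapped between these sets. The 34 tested other early response genes split into 18 higher and 16 lower, with 0 at an unadjusted p under 0.05; Klf4 was at -0.16 (SE 0.08), Hes1 at 0.52 (SE 0.32) and Csrnp1 at 0.18 (SE 0.12). Dusp1, a phosphatase gene induced by the same kinases it switches off, was at 9.56 to 9.94 on Cd2-high and 10.10 to 10.92 on Cd2-low arrays, the opposite order to Jun.

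Of 12 tested upstream kinases 4 had higher and 8 lower values. The ERK-activated kinase gene Rps6ka3 was at -0.28 (SE 0.09, limma unadjusted p = 0.0108, adjusted p = 0.999), Camk4 at -0.43 (SE 0.36) and Braf at 0.18 (SE 0.17). SRF, ternary complex, MRTF and CREB factors gave 7 higher and 10 lower values among 17, with Srf itself at -0.04 (SE 0.09), Cabin1, a calcineurin inhibitor, at -0.22 (SE 0.08), Crtc2 at 0.20 (SE 0.10) and Nfatc1 at -0.15 (SE 0.08). The 16 tested MRTF-SRF targets of the actin cytoskeleton split into 7 higher and 9 lower, and their members of smallest p were the smooth muscle genes Acta2 (0.83, SE 0.23), Myl9 (0.42, SE 0.16) and Tagln (0.40, SE 0.20). None of the 3 passed (limma adjusted p = 0.999), and Acta2 was at 10.20 on WASP-intact array 5, inside the WASP-deficient range of 9.82 to 10.93.

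Among 13 tested T cell activation genes 6 had higher and 7 lower values. Tnfrsf9, the costimulatory receptor 4-1BB, was at 0.45 (SE 0.14), Nfkbid at -0.28 (SE 0.13) and Tnfaip3 at -0.22 (SE 0.10), and none passed. Cd69, an early activation marker, was at 9.33 on WASP-deficient array 5 and at 5.60 to 7.97 on the other 9. Of 9 tested genes linked to JUNB and AP-1 in ALK lymphoma 4 had higher values, with Timp1 at -0.50 (SE 0.42), Batf3 at 0.10 (SE 0.08) and Prdm1 at 0.28 (SE 0.25). Tnfrsf8, which encodes CD30, was at 10.31 to 10.50 on the 3 Cd2-high arrays and 7.96 to 9.01 on the others. Its level was thus high on the same arrays as Jun, while Junb overlapped between these sets. Over the 127 pathway genes 21 were higher and 17 lower on Cd2-high arrays without overlap, 29.9% in all, against 30.5% of all genes tested.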

How the data were processed

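The authors deposited probe set intensities on a linear scale; the submitters' processing notes name RMA. That method corrects background, equalises array distributions and summarises probes, so array-wide differences in RNA amount cannot be read. The software and its annotation: not given in the sources used here. Median intensity per array was 116.7 to 122.7, and the number of arrays limits precision. The log2 of each value was taken before any test. Of 34760 probe sets 21640 had 1 gene symbol in the platform annotation, 1321 several, and 11799 are unnamed here; 21553 entries matched RefSeq genes of GRCm38.p6, used for names only. Probe sets with a mean under the 40th percentile were left out, and per gene the probe set of highest mean was kept. Genotypes were compared with limma 3.58.1 (lmFit, eBayes) in R 4.3.3, adjusted by Benjamini-Hochberg over 12670 genes at 0.05, after tests on simulated data. Exact two-sided permutation tests were run over arrays (Python 3.11.15, smallest p 0.00794 for 5 against 5). Replicates are labelled biological. A marker score is the mean over tested markers of the level centred on each gene's mean.

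Named were the members, 3 genes of smallest p per list, the 2 genes of highest r per member, and Was, Cd2, Cd3e and Xist. Fosl2, Egr3, Egr4, Nr4a2, Dusp1, Srf, Cd3d, Cd3g, Zap70, Cd69, Tnfrsf8 and all genes first named in the closing section were chosen after their values were seen. Members and lists were chosen with earlier results of these data known. Alternatives changed the filter, probe set rule, variance model, test, covariates and arrays.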

Additional observations from a re-analysis of the deposited data

Results flagged for a closer look

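Among 35 genes in 2 genotype groups of 5, 70 groups were looked at for an array that stands apart (gap to the nearest array over the group's range above 0.71), and 5 were found; chance gives about 1 in 20. Jun was at 9.79 on WASP-deficient array 1, against 7.94 to 8.33 on the other 4. Nr4a1 was at 9.19 on WASP-deficient array 4, against 6.54 to 7.23. Acta2 was at 10.20 on WASP-intact array 5, against 9.22 to 9.46. Maf was at 8.51 and Nfatc1 at 8.93 on WASP-deficient array 5, against 7.46 to 7.65 and 9.11 to 9.18.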

How the results depend on the processing

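Under 20 alternatives 0 of 174 member values passed (limma or the unmoderated test with unequal variances; adjusted p 0.659 to 1). Fos, Fosb and Junb stayed below 0 and Atf3, Egr1 and Egr2 above 0 in all that could test them; the filter at the 60th percentile left only Jun, Jund and Egr1. Leaving out 1 array at a time gave -0.30 to 0.20 for Jun, -0.025 to 0.12 for Jund and -0.19 to 0.47 for Nr4a1, turning Jun without WASP-deficient array 1 or WASP-intact array 1, 2 or 3, Jund without WASP-deficient array 1 or WASP-intact array 3, and Nr4a1 without WASP-deficient array 4. Jund also turned with array weights (-0.075) and without the Cd2-high arrays (-0.044). Other reversals were Prdm1 with array weights (-0.036) and, with the Xist covariate, Braf (-0.0028), Camk4 (0.22) and Nfkbid (0.016); the cause was not tested. Over all genes, 1 was called higher in the unmoderated test (Slc38a7) and 1 without the Cd2-high arrays (Ybx3), and 0, against 1, were called lower with the Xist covariate or the replicate block. Leaving out 1 array gave 0 to 2 higher and 1 to 2 lower, both highest without WASP-intact array 3. The genes called there were Kdm5d, Uty, Was and Xist. That array had Xist at 4.40, unlike the rest of the WASP-intact group, so without it sex and genotype coincide fully. The count of members without overlap between Cd2 classes went from 1 to 3 in WASP-intact arrays alone. With the replicate number as a block Was no longer passed (-1.14, adjusted p = 0.136). Deviations of same-numbered arrays correlated at -0.71 to 0.37, and 1 of 5 WASP-intact arrays went best with its own number. All correlations were above 0 within a Cd2 class and below 0 across classes. Whether the numbers pair the arrays therefore cannot be told from this check. An unadjusted p under 0.05 was found for 366 genes, for 888 without WASP-deficient array 1, 554 with the Cd2 class as a block, 205 without WASP-intact array 4, 234 without WASP-intact array 5, 187 with the Xist covariate, 646 of 19937 without the filter and 216 of 9003 at the 60th percentile. All p-values rest on 5 arrays per genotype.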

Other observations

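Nr4a1 and Fosl2 were among 14 genes that exceeded every other array by at least 1 on WASP-deficient array 4. Bnip3, a mitophagy receptor gene induced by low oxygen, was at 10.63 there and at 8.54 to 9.37 on the other 9. Ankrd37, another gene induced by low oxygen, was at 9.11 against 7.54 to 7.86. Eif2ak3, which encodes the stress kinase PERK, was at 10.33 against 8.46 to 9.32, and the cell cycle inhibitor gene Cdkn1c at 9.24 against 6.67 to 7.86. The transcription factor gene Spib was at 9.42 against 6.06 to 7.57. The largest step of the 14 was that of Lrrc10b, at 9.11 against 6.56 to 7.16. Upk1b, at 9.48 against 7.08 to 8.01, and Cym, at 10.67 against 6.70 to 9.30, were also among them. WASP-deficient array 4 was not apart for Jun, at 7.94, the second lowest of the 10 arrays.

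Egr1 was among 18 genes for which WASP-deficient arrays 4 and 5 both exceeded the other 8 by at least as much as Egr1 did. The largest such step was that of Ret, a receptor tyrosine kinase gene, at 9.40 and 9.49 against 6.24 to 6.60. Enah, which encodes the actin regulator Mena, was at 9.72 and 9.82 against 6.63 to 7.33. Cpm was at 8.55 and 9.23 against 5.58 to 6.37, and Elovl2 at 8.25 and 8.58 against 5.46 to 6.35. Abi2, which encodes a subunit of the WAVE complex, had a smaller step, at 8.98 and 9.47 against 6.26 to 7.58. Rora, a nuclear receptor gene, was at 8.27 and 8.52 against 6.99 to 7.28. These genes were chosen after their values were seen, the arrays are no group of the study, and no test was made.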
